A study of Homo sapiens with 6 samples.

Results

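The globins and erythroid genes described here are 9 transcripts that mark the red cell lineage: HBB, HBA1, HBA2, HBD, ALAS2, SLC4A1, HEMGN, CA1 and EPB42. They were taken by symbol from a deposited table of 16551 protein-coding genes, and all 9 are in it. They had been chosen by their counts, which were higher in the si-YTHDF2 libraries than in the NC libraries, so that difference is given below as a description, with no test. The study compared 3 libraries labelled si-YTHDF2 with 3 labelled NC, its control, in a series whose title names YTHDF2 and psoriasis. The name si-YTHDF2 is commonly given to cells in which a small interfering RNA targets YTHDF2, a reader of N6-methyladenosine in mRNA. All 6 libraries are labelled HaCaT, an immortalised human keratinocyte line, and were made from total RNA after depletion of ribosomal RNA. The labels name no genotype, dose or time, and they do not say whether the replicates were separate cultures, so p-values here cover the variation among the 6 libraries alone, and that variation may be technical.

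Hemoglobin, the oxygen carrier of red cells, is a tetramer of alpha and beta chains, each holding a heme group. HBA1 and HBA2 encode the same alpha chain, HBB encodes the adult beta chain, and HBD encodes the delta chain of a minor adult hemoglobin. Developing red cells make heme through their own isoform of the first enzyme of the pathway, ALAS2, and carry the anion exchanger SLC4A1 (band 3), which EPB42 (protein 4.2) helps to anchor to the membrane skeleton. HEMGN is a nuclear protein of blood progenitors, and CA1 is the carbonic anhydrase that is abundant in mature red cells. These genes are classed as erythroid and not as keratinocyte genes.

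The libraries held between 19803707 and 21481302 counts in si-YTHDF2 and between 20312740 and 22698069 in NC. Levels below are counts scaled to library size (CPM) with TMM factors. YTHDF2 itself was at 43.0, 48.4 and 43.5 CPM in si-YTHDF2, against 74.6, 77.5 and 83.8 CPM in NC, so 57.1% of the NC level was left (log2 fold change -0.81; edgeR's quasi-likelihood test, adjusted p = 4.13e-07). An exact permutation test, two-sided, came to p = 0.1, and 3 libraries against 3 allow no smaller p. Of the marker lists for the labelled cell type, 16 of 16 keratinocyte genes were in the table, with summed levels from 6862 to 7345 CPM in si-YTHDF2 and from 7466 to 7865 CPM in NC. In edgeR 2 of the 16 were called higher and 6 lower in si-YTHDF2, where 26.1% of all 12264 genes tested were higher, 25.2% lower and 51.2% called in either direction. The basal keratin KRT5 was abundant, at 2384 ± 181 CPM in si-YTHDF2 and 2029 ± 35.2 CPM in NC (SD, n = 3 each). Its usual partner KRT14 had only 42, 48 and 38 counts in si-YTHDF2, against 12, 33 and 98 in NC. A list of 8 genes of simple and mucosal epithelium came to between 7095 and 7901 CPM in si-YTHDF2 and between 16751 and 17398 CPM in NC.

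Upstream sequence was searched in 4 of the 9 genes, for the letters AGATAA and TGATAA, which are bound by GATA1, the erythroid master regulator. The windows are the 250 bases before each transcript start in RefSeq on GRCh38.p14; 5 windows were found, of HEMGN with 2 starts, HBD, EPB42 and ALAS2. HBB, HBA1, HBA2, SLC4A1 and CA1 were not examined. Each of the 5 windows held AGATAA or TGATAA on one strand or the other, against 14.6% of all 35116 windows. CACCC, the letters bound by KLF1, was in 2 of the 5 windows and in 54.7% of all windows, and CCAAT in 2 of the 5 and in 32.0% of all windows. None of these motifs overlaps another, both strands were searched, and a match is a description and not a site of binding. The 3 stretches shown are the parts of those windows outside annotated exons that hold a match; capitals mark it, and TTATCA and TTATCT are the matches read on the opposite strand. All 3 run 5′ to 3′ on the minus strand: HEMGN at chr9:97944857-97945102, EPB42 at chr15:43221126-43221268 and ALAS2 at chrX:55031065-55031227.
HEMGN upstream: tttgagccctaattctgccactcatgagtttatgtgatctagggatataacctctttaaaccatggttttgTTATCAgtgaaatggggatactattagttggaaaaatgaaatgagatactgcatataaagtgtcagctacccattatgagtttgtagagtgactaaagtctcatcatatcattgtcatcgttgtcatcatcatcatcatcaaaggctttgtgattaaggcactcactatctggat
EPB42 upstream: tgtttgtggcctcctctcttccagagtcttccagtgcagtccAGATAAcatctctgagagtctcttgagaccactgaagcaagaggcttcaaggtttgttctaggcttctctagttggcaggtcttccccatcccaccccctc
ALAS2 upstream: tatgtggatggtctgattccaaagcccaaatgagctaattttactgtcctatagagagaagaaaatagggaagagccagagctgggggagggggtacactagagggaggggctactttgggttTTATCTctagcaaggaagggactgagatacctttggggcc
The match began 179 bases before the transcript start in HEMGN, 208 bases before it in EPB42 and 127 bases before it in ALAS2. HBD had its match 78 bases before the start, and EPB42 had a second one at 61 bases, both in annotated exons. The other HEMGN window had matches 155 and 114 bases before its start, also in annotated exons. In HBD and that HEMGN window no match lay outside annotated exons. In si-YTHDF2 the mean levels of these 4 genes ran from 0.247 CPM for HBD to 7.90 CPM for ALAS2.

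In all 9 genes each si-YTHDF2 library lay above each NC library. That pattern was shown by 24.5% of all genes listed and by 29.9% of the genes tested, and since this contrast chose the members nothing is read from the count. The low-count filter kept 7 of the 9, all but HBD and EPB42. ALAS2, SLC4A1, HEMGN and CA1 passed it through their si-YTHDF2 counts, so no test is given for these 7 either, and the edgeR log2 fold changes below describe size only.

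The beta globin gene was the most abundant of the set. HBB (ENSG00000244734; minus strand of chromosome 11, 5225464 to 5229395 in GRCh38, 3 exons in its reference transcript) had 29435, 33538 and 27411 counts in si-YTHDF2, against 997, 955 and 1008 in NC. These were levels of 1320, 1548 and 1369 CPM in si-YTHDF2 and of 45.6, 48.5 and 45.6 CPM in NC. The groups lay far apart, and the lowest si-YTHDF2 library was 27.2-fold above the highest NC library. HBB was the 49th, 41st and 50th most counted gene of the si-YTHDF2 libraries and ranked 4649, 4444 and 4671 in the NC libraries. The ratio of group means was 30.3, and edgeR's log2 fold change was 4.92, which ran from 4.85 to 4.99 over the alternatives. With close to 1000 counts in each NC library, HBB was well measured in the control as well: its coefficient of variation was 8.46% in si-YTHDF2 and 3.64% in NC.

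The alpha globin genes lie side by side on the plus strand of chromosome 16, HBA2 (ENSG00000188536) from 172876 to 173710 and HBA1 (ENSG00000206172) from 176680 to 177522. HBA1 had 1994, 1956 and 1815 counts in si-YTHDF2, against 93, 81 and 98 in NC. HBA2 had 2580, 2563 and 2536 counts in si-YTHDF2, against 123, 99 and 138 in NC. Both genes were thus about equally high in the 3 si-YTHDF2 libraries and low in the 3 NC libraries, with no overlap. HBA1 averaged 90.1 ± 0.617 CPM in si-YTHDF2 and 4.27 ± 0.158 CPM in NC (SD, n = 3 each), a ratio of 21.1. HBA2 averaged 120 ± 5.73 CPM in si-YTHDF2 and 5.63 ± 0.604 CPM in NC (SD, n = 3 each), a ratio of 21.4. Of the 478 windows of 100 bases in the HBA1 transcript, 381 (79.7%) also occur in the HBA2 transcript, so the split of counts between them is uncertain and their sum is the safer measure. Of 529 such windows in HBB, 0 occur in HBD.

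HBD (ENSG00000223609), next to HBB on chromosome 11 from 5232678 to 5243657, was close to the limit of detection. It had 7, 6 and 3 counts in si-YTHDF2, against 0, 2 and 0 in NC. The lowest si-YTHDF2 library held only 1 count more than the highest NC library. The ratio of summed counts, scaled to depth, was 7.96, with a 95% interval from 1.87 to 71.4. This interval and the others given here cover counting error only. Since the contrast between the groups chose the members, intervals of such ratios are no test of it. Both NC counts came from replicate 2, and without it NC held 0.

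The remaining hemoglobin chains were nearly absent. HBG1, a fetal gamma chain, had 0, 2 and 2 counts in si-YTHDF2 and 0 in each NC library, and HBG2, the other gamma chain and a close copy of it, had 2, 0 and 0 in si-YTHDF2, against 0, 0 and 1 in NC. HBQ1, the theta chain, had 0, 0 and 3 counts in si-YTHDF2 and 0 in each NC library. AHSP, the chaperone of free alpha chains, had 4, 2 and 0 counts in si-YTHDF2 and 0 in each NC library. A total of 3 counts over a group, the floor used here, correspond to 0.0469 CPM in si-YTHDF2 and 0.0471 CPM in NC. None of the 4 passed the low-count filter, and without the filter 0 were called (edgeR, smallest adjusted p = 0.0952). HBE1, HBZ and HBM were not analysed here.

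**Figure D1:**
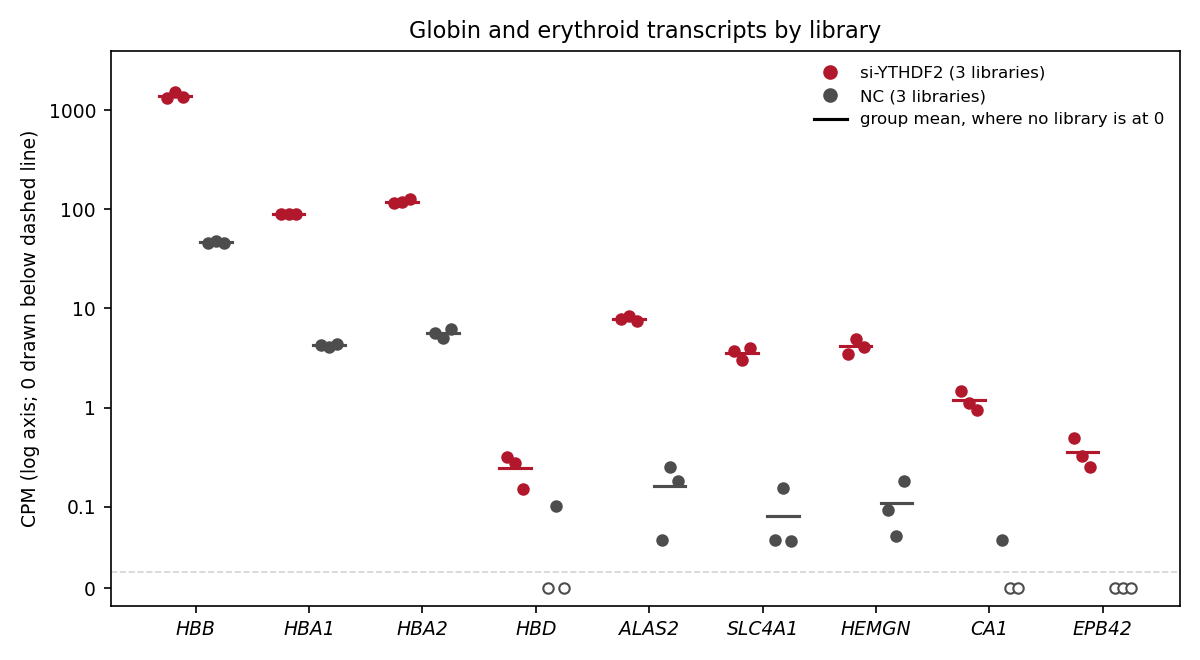
Level of each of the 9 genes in CPM (log axis) in the 3 si-YTHDF2 libraries (red) and the 3 NC libraries (grey); each point is a library, short bars are group means where no library is at 0, and open points below the dashed line are libraries with 0 counts. In all 9 genes the red points lie above the grey ones, closest in HBD (0.150 CPM in the lowest si-YTHDF2 library against 0.102 CPM in the highest NC library).

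ALAS2 (ENSG00000158578; minus strand of chromosome X, 55009055 to 55031064) starts heme synthesis in red cells. It had 174, 181 and 151 counts in si-YTHDF2, against 1, 5 and 4 in NC. The si-YTHDF2 libraries lay close together and the NC libraries near 0. The mean level was 7.90 ± 0.413 CPM in si-YTHDF2 and 0.160 ± 0.106 CPM in NC (SD, n = 3 each), and the ratio of summed counts was 50.4 with an interval from 27.2 to 106.

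The membrane genes were lower in level but parted the groups in the same way. SLC4A1 (ENSG00000004939; minus strand of chromosome 17, 44248385 to 44268141) had 83, 65 and 80 counts in si-YTHDF2, against 1, 3 and 1 in NC. Its ratio of summed counts was 45.4 with an interval from 19.2 to 141. The log2 fold change of 5.40 was 6.12 without NC replicate 2, which held 3 of its 5 NC counts. EPB42 (ENSG00000166947; minus strand of chromosome 15, 43197227 to 43221125) had 11, 7 and 5 counts in si-YTHDF2 and 0 in each NC library. Set against the floor of 3 counts over the NC group, its ratio was 7.63. The exact interval of the ratio of summed counts had a lower limit of 5.72 and no upper limit.

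HEMGN (ENSG00000136929; minus strand of chromosome 9, 97926791 to 97944856) had 78, 106 and 81 counts in si-YTHDF2, against 2, 1 and 4 in NC. Replicate 2 of si-YTHDF2 was the highest for HEMGN, as it was for HBB and ALAS2, and the lowest for SLC4A1. The mean level of HEMGN was 4.15 ± 0.701 CPM in si-YTHDF2 and 0.108 ± 0.0665 CPM in NC (SD, n = 3 each), and the ratio of summed counts was 37.7 with an interval from 18.0 to 94.6. CA1 (ENSG00000133742; minus strand of chromosome 8, 85327608 to 85379014) had 33, 24 and 19 counts in si-YTHDF2, against 1, 0 and 0 in NC. Its ratio of 75.6 rests on that 1 NC count and has an interval from 13.2 to 3026. The log2 fold change of CA1 was 5.78, and 7.65 without NC replicate 1, which held the count.

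Scaled to the length of a reference transcript, the levels in si-YTHDF2 fell into steps. HBB stood at 2249 ± 190 CPM per kilobase, followed by HBA2 at 209 ± 9.94 and HBA1 at 156 ± 1.07 CPM per kilobase (SD, n = 3). ALAS2 came next at 3.90 ± 0.204 CPM per kilobase, then HEMGN at 1.80 ± 0.304 and SLC4A1 at 0.721 ± 0.104 CPM per kilobase. CA1 at 0.423 ± 0.0979 CPM per kilobase, HBD at 0.315 ± 0.110 and EPB42 at 0.144 ± 0.0507 CPM per kilobase closed the order. Neighbours in this order did not overlap between libraries except CA1 with HBD and HBD with EPB42. In NC the 3 globin genes led as well, with 74.1 CPM per kilobase for HBB, 9.78 for HBA2 and 7.39 for HBA1, and the other genes were at 0.0790 CPM per kilobase or less.

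The 9 genes together took 0.160%, 0.181% and 0.162% of all counts in the si-YTHDF2 libraries, against 0.00550%, 0.00564% and 0.00552% in the NC libraries. Globin transcripts made up nearly all of this, from 98.9% to 99.0% of the members' counts in si-YTHDF2 and from 99.2% to 99.6% in NC. The alpha share was lower in each si-YTHDF2 library. Counts of HBA1 and HBA2 were 13.4%, 11.9% and 13.7% of all globin counts in si-YTHDF2, against 17.8%, 15.8% and 19.0% in NC. The shares did not overlap between the groups, but the exact binomial interval of NC replicate 2 (13.8% to 18.1%) met those of si-YTHDF2 replicate 1 (13.1% to 13.8%) and replicate 3 (13.3% to 14.1%). Within the alpha counts HBA2 held 56.4%, 56.7% and 58.3% in si-YTHDF2, against 56.9%, 55.0% and 58.5% in NC, so on this measure the groups overlapped.

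**Figure D2:**
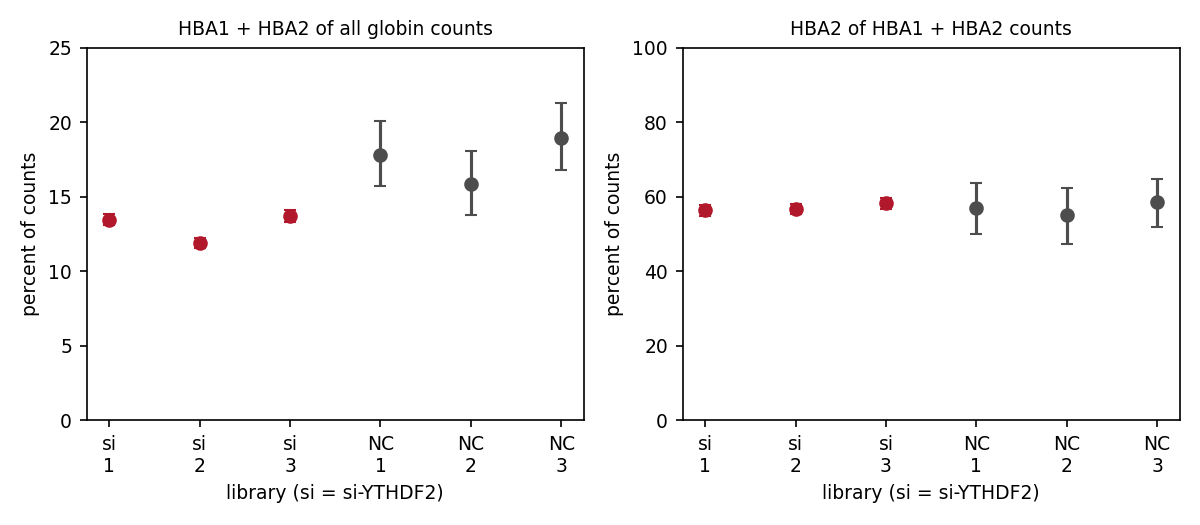
Share of HBA1 plus HBA2 among the counts of the globin members (left) and share of HBA2 among the counts of HBA1 plus HBA2 (right), in percent, for each library (si-YTHDF2 red, NC grey); bars are exact 95% binomial intervals and cover counting error only. The left panel shows 11.9% to 13.7% in si-YTHDF2 against 15.8% to 19.0% in NC, and in the right panel the groups overlap.

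Because HBB was well counted in all 6 libraries, the rarer genes were also set against it, within each group. Per 1000 HBB counts, ALAS2 had 5.60 counts in si-YTHDF2 (interval 5.12 to 6.11) and 3.38 in NC (1.62 to 6.22). SLC4A1 had 2.52 in si-YTHDF2 (2.21 to 2.87) and 1.69 in NC (0.548 to 3.95), and HEMGN had 2.93 in si-YTHDF2 (2.59 to 3.31) and 2.36 in NC (0.950 to 4.88). CA1 had 0.841 in si-YTHDF2 (0.662 to 1.05) and 0.338 in NC (0.00855 to 1.88), and EPB42 had 0.254 in si-YTHDF2 (0.161 to 0.382) and 0 in NC (up to 1.25). All 5 values were higher in si-YTHDF2. For these 5 genes the intervals of the groups overlapped, and a difference relative to HBB was not tested. For the alpha genes the intervals of the summed counts lay apart. HBA1 had 63.8 in si-YTHDF2 (62.1 to 65.5) and 91.9 in NC (80.9 to 104). HBA2 had 85.0 in si-YTHDF2 (83.0 to 87.0) and 122 in NC (109 to 136). Libraries of a group differed beyond these intervals: HBA1 had 67.7 (64.7 to 70.9) in si-YTHDF2 replicate 1 and 58.3 (55.7 to 61.0) in replicate 2. For both genes the interval of NC replicate 2 met those of si-YTHDF2 replicates 1 and 3.

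Many markers of other blood cells were higher in si-YTHDF2 as well. Of all genes listed, 24.5% had each si-YTHDF2 library above each NC library, and 22.3% had each below. Of 9 platelet and megakaryocyte markers in the table, 5 were higher in si-YTHDF2 with no overlap, and the list's summed level ran from 13.4 to 15.7 CPM in si-YTHDF2 and from 1.08 to 3.20 CPM in NC; GP9 was at 0 in NC. PPBP, a platelet chemokine, had 146, 134 and 119 counts in si-YTHDF2, against 6, 7 and 5 in NC. The monocyte and macrophage list came to between 25.7 and 28.9 CPM in si-YTHDF2 and between 5.15 and 7.23 CPM in NC, with 8 of 9 markers higher in each si-YTHDF2 library and CD14 lower in each. The pan-leukocyte list went the other way in sum, from 134 to 140 CPM in si-YTHDF2 and from 343 to 371 CPM in NC. That sum was carried by ARHGDIB, at 123 ± 3.75 CPM in si-YTHDF2 and 352 ± 14.8 CPM in NC (SD, n = 3 each), while 5 of the 8 markers were higher in each si-YTHDF2 library. PTPRC, the leukocyte surface phosphatase CD45, averaged 4.30 ± 0.894 CPM in si-YTHDF2 and 0.235 ± 0.0364 CPM in NC (SD, n = 3 each).

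The defining erythroid markers, 12 genes of which 5 are members, came in sum to between 1539 and 1769 CPM in si-YTHDF2 and between 58.9 and 60.4 CPM in NC. GYPB, RHAG, AHSP and KLF1 were among those at 0 in all NC libraries. GATA1 had 0, 2 and 0 counts in si-YTHDF2, against 0, 1 and 0 in NC. In bulk RNA, more cells of a type and more RNA per cell cannot be told apart. The part of platelet, monocyte and other blood cell markers in the globin result was not tested. Per 1000 HBB counts, PPBP had 4.41 in si-YTHDF2 (3.99 to 4.87) and 6.08 in NC (3.60 to 9.63), and TUBB1, the platelet beta tubulin, had 2.50 in si-YTHDF2 (2.18 to 2.85) and 1.01 in NC (0.209 to 2.96). PTPRC had 3.03 in si-YTHDF2 (2.68 to 3.41) and 5.07 in NC (2.83 to 8.37), intervals that overlapped as well. LYZ, the lysozyme of monocytes and granulocytes, had 4.88 in si-YTHDF2 (4.43 to 5.36) and 10.1 in NC (6.83 to 14.5). These summed intervals did not overlap, but the interval of NC replicate 3 alone (3.42 to 15.7) met that of each si-YTHDF2 library.

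**Figure D3:**
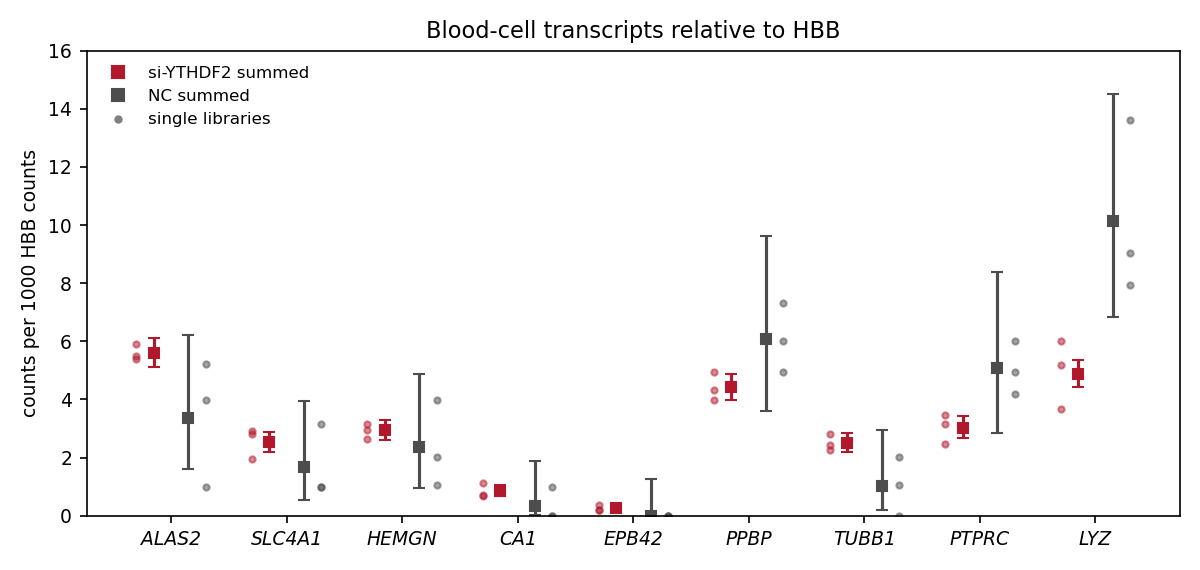
Counts per 1000 HBB counts of 5 erythroid genes and 4 platelet or leukocyte markers, summed over the si-YTHDF2 libraries (red squares) and the NC libraries (grey squares), with small points for single libraries. Bars are exact 95% binomial intervals on the gene's count relative to the HBB count and cover counting error only. The intervals of the summed counts of si-YTHDF2 and NC overlap for each gene except LYZ, at 4.88 in si-YTHDF2 and 10.1 in NC.

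The genes that most resembled HBB across the 6 libraries were then listed, by the root mean square difference of log2 CPM after each gene's mean was subtracted. Among genes outside the set the 8 nearest were FCRLA (0.13), NT5DC4 (0.23), FCN1 (0.31), TUBB1 (0.31), PPBP (0.45), SYT14 (0.45), NKX1-2 (0.46) and RGS18 (0.49), on the log2 scale. FCRLA, a gene of B cells, had 147, 160 and 118 counts in si-YTHDF2, against 3, 2 and 3 in NC. FCN1, a lectin of monocytes and granulocytes, had 54, 59 and 39 counts in si-YTHDF2, against 1, 0 and 0 in NC. On the same measure HBA1 (0.29), HBA2 (0.30), ALAS2 (0.38), HEMGN (0.39) and SLC4A1 (0.39) were near HBB, and CA1 (0.75), EPB42 (1.37) and HBD (1.77), the genes with the fewest counts, were farther away. All these genes differ between the groups, and that difference is part of the measure.

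The wider erythroid and heme genes, none of them a member, did not follow the globins as a whole. Over 7 lists 91 genes were tested, of which 35 were higher and 22 lower, while 34 did not pass the threshold, with a median log2 fold change of 0.07. The median over all 12264 genes was 0.01, 26.1% of them were called higher and 25.2% lower. Some of the called list genes, such as GYPC, IKZF1, XK and MB, passed the low-count filter only through the group in which they were high. With library totals in place of TMM scaling the split over all genes was 3860 higher and 2433 lower, and the median over all genes was 0.08.

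In heme synthesis 5 of 14 tested genes were higher and 2 lower (edgeR, adjusted p under 0.05), with a median log2 fold change of 0.10. ALAS1, the housekeeping counterpart of ALAS2, rose to 75.3 ± 5.57 CPM in si-YTHDF2, against 46.1 ± 1.06 CPM in NC (SD, n = 3 each), which is 0.71 on the log2 scale (edgeR, adjusted p = 1.04e-06). SLC25A37, which brings iron into mitochondria, rose by 0.82 on the log2 scale and the pathway enzyme UROS by 0.64, whereas ALAD, its second enzyme, fell by 0.47. In iron handling and heme breakdown 8 of 19 were higher and 3 lower, with a median of 0.19. The ferritin chains FTL (0.72) and FTH1 (0.35), the transferrin receptor TFRC (0.67) and the heme exporter FLVCR1 (0.54) rose. With library totals 8 of the 19 were higher and 1 lower, and without si-YTHDF2 replicate 1 the counts were 8 higher and 6 lower.

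The red cell membrane and skeleton list held 8 higher and 6 lower genes among 21 tested, with a median of 0.14. GYPC, which encodes glycophorins C and D, had 87, 72 and 56 counts in si-YTHDF2, against 6, 4 and 2 in NC (log2 fold change 4.11). It passed the low-count filter through its si-YTHDF2 counts, so no test is given for it. The glucose transporter SLC2A1 rose by 1.30 on the log2 scale, while the calcium pump ATP2B4 fell by 1.38 and the complement inhibitor CD59 by 0.42. GYPB, which encodes glycophorin B, was below the filter and had 7, 3 and 5 counts in si-YTHDF2 and 0 in each NC library.

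Among transcription factors and receptors of the lineage 3 of 13 were higher and 6 lower, with a median of -0.32. MYB, which keeps progenitors dividing, was at 1.96 ± 0.359 CPM in si-YTHDF2 and 5.12 ± 0.521 CPM in NC (SD, n = 3 each), or -1.38 on the log2 scale (edgeR, adjusted p = 1.42e-04). KLF3 fell by 0.40 on the log2 scale and RUNX1 rose by 0.42. IKZF1, a lymphoid and hematopoietic zinc finger factor, had 22, 30 and 18 counts in si-YTHDF2, against 3, 0 and 1 in NC (log2 fold change 4.0, and 5.20 without NC replicate 1). It passed the low-count filter through its si-YTHDF2 counts, so no test is given for it. KLF1 had 2, 1 and 1 counts in si-YTHDF2 and 0 in each NC library.

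Of the red cell enzymes and genes of late maturation 11 of 23 were higher and 4 lower, with a median of 0.25. TENT5C (listed under its older symbol FAM46C), a poly(A) polymerase, had 441, 446 and 383 counts in si-YTHDF2, against 30, 15 and 27 in NC (log2 fold change 4.13; edgeR, adjusted p = 3.53e-10). The creatine transporter SLC6A8 rose by 1.08 on the log2 scale and BNIP3L, a mitophagy receptor, by 0.98. Both are also expressed outside red cells, and each had at least 762 counts in every NC library. Among globins of other tissues MB, the myoglobin of muscle, was lower: it had 2, 0 and 2 counts in si-YTHDF2, against 22, 14 and 20 in NC (log2 fold change -3.69). MB passed the low-count filter through its NC counts, so no test is given for it. CYGB, cytoglobin, was below the filter, with 4 counts in si-YTHDF2 and 6 in NC over the group.

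Of the 31 genes of these lists below the filter, 24 had more counts in si-YTHDF2 than in NC and 6 had fewer, where 51.3% of all 4287 genes below the filter had more and 40.0% fewer. With no filter 7 of the 31 were called higher and 0 lower by edgeR. In that fit 4.01% of all genes below the filter were called higher and 1.52% lower, and 19.9% of all 16551 genes were called higher. Among them, named after their values were seen, were GYPB, the urea transporter SLC14A1, LYL1, SELENBP1, GMPR and IFIT1B, each with 5 or fewer counts over the NC group.

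**Figure D4:**
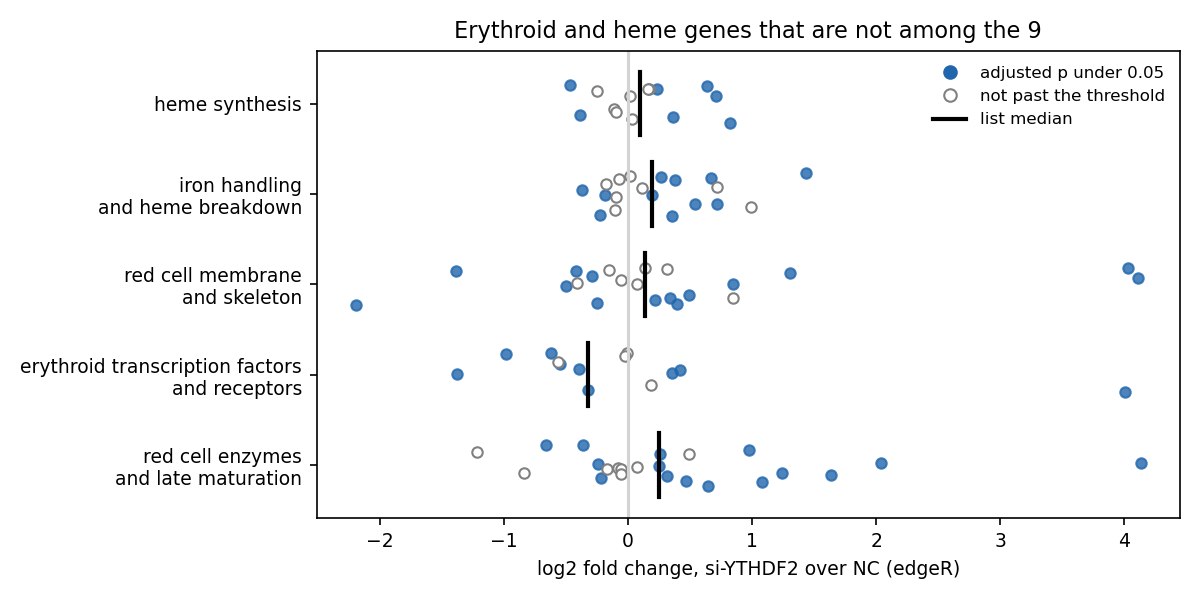
edgeR log2 fold change, si-YTHDF2 over NC, of each tested gene in 5 lists of erythroid and heme genes that exclude the 9 members; filled points passed an adjusted p of 0.05, open points did not, and black bars are list medians. The medians lie between -0.32 and 0.25, and GYPC (4.11), IKZF1 (4.0), TENT5C (4.13) and the membrane gene XK (4.03), the last named after its values were seen, stand far to the right. GYPC, IKZF1 and XK passed the low-count filter through their si-YTHDF2 counts.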

How the data were processed

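Per the file headers, the deposited table gives a raw count per gene and library, which the authors made before deposit. The build hg38 is named in the submitters' processing notes; the aligner is not given in the sources used here, nor is the counter or the use of strand. A further 6 normalized columns were not used, and 2 lines without identifiers were left out. The 9 genes and all lists were chosen with earlier results of these data known.

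Counts were analysed with edgeR 4.0.16 in R 4.3.3 (TMM, filterByExpr with a minimum count of 10, quasi-likelihood test, no covariate, Benjamini-Hochberg over 12264 genes, called at an adjusted p under 0.05). CPM used TMM-scaled library sizes. No library repeated another: chi-square per gene was 3.77 to 14.1 within groups. Binomial intervals are exact at 95%, and the floor is 3 counts. Positions and lengths are from GENCODE 29 on GRCh38. Named genes were the 9 members, YTHDF2, the 4 smallest p of each list, all other hemoglobin chains, the 3 highest markers of each cell type and the 8 profiles nearest HBB; others are named as chosen later, and some genes of these lists are not reported here. The 12 alternatives were RLE factors, library totals, no filter, a mean count of at least 50, DESeq2 1.42.0, the replicate number as a block and each library left out.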

Additional observations from a re-analysis of the deposited data

How the results depend on the processing

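The 7 members that passed the filter were higher in si-YTHDF2 under each of the 12 alternatives that gave them a value. They had been chosen by that direction in these same libraries, so this is a description and not a check of it. With a mean count of at least 50, only 4 of the 9 had a value (HBB, HBA1, HBA2 and ALAS2) and 0 globins of other tissues were tested, because MB falls below that minimum. Over the alternatives the log2 fold change ran from 4.37 to 4.46 for HBA1, from 4.34 to 4.49 for HBA2, from 5.16 to 6.05 for ALAS2, from 4.87 to 5.73 for HEMGN, from 5.12 to 6.12 for SLC4A1 and from 5.31 to 7.65 for CA1. YTHDF2 and the named pathway genes that were given a test kept direction and call in each alternative that tested them. GYPC, IKZF1 and MB kept direction. Among all genes 5496 to 6757 genes were called when 1 library was left out, against 6285 with all 6. Deviations of same-numbered libraries correlated at 0.055, 0.052 and 0.035, and those of differently numbered libraries at -0.049 to 0.007. All are small, and they do not settle whether the replicate numbers pair the libraries. With the replicate number as a block 6438 genes were called. The median of the membrane list was -0.05 with a mean count of at least 50, and that of the transcription factor list was 0.09 with no filter and 0.08 with DESeq2, all of the opposite sign to the main value; the genes tested differ in these alternatives. Depth limits HBD, CA1 and EPB42, with 2, 1 and 0 counts in NC, and the sharing of reads between HBA1 and HBA2 is unknown.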

Other observations

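Lymphocyte markers were sparse, and 2 of 10 B and plasma cell genes and 1 of 11 T and NK cell genes passed the low-count filter. These 3 passed it through their si-YTHDF2 counts, so no test is given for them. In 6 of the 10 B and plasma cell genes each si-YTHDF2 library lay above each NC library, as in 24.5% of all genes listed. The list of 10 B and plasma cell genes summed to between 8.44 and 10.2 CPM in si-YTHDF2 and between 0.406 and 0.723 CPM in NC. Most of that sum was FCRLA, at 6.62 ± 0.745 CPM in si-YTHDF2 and 0.125 ± 0.0201 CPM in NC (SD, n = 3 each), followed by JCHAIN, the joining chain of secreted antibodies, at 1.16 ± 0.273 CPM in si-YTHDF2 and 0.0301 ± 0.0522 CPM in NC (SD, n = 3 each). The T and NK cell list summed to between 2.65 and 3.63 CPM in si-YTHDF2 and between 0.366 and 0.508 CPM in NC, with 8 of 11 markers higher in each si-YTHDF2 library, NKG7 at 0 in NC and CD7 lower in sum, with 3 counts in si-YTHDF2 and 10 in NC. The natural killer receptor KLRD1 averaged 1.45 ± 0.206 CPM in si-YTHDF2 and 0.0928 ± 0.0433 CPM in NC (SD, n = 3 each).

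Neutrophil markers divided. CSF3R averaged 1.32 ± 0.378 CPM in si-YTHDF2 and 0.110 ± 0.115 CPM in NC (SD, n = 3 each), and MNDA was higher as well, while CXCR2 averaged 0.965 ± 0.155 CPM in si-YTHDF2 and 3.47 ± 0.226 CPM in NC (SD, n = 3 each). The summed list overlapped between the groups, at 3.51 to 5.02 CPM in si-YTHDF2 and 3.30 to 4.07 CPM in NC; CXCR1, FPR1, S100A12, CEACAM8 and MPO were at 0 in NC. The fibroblast list summed to between 83.7 and 98.1 CPM in si-YTHDF2 and between 134 and 184 CPM in NC, with FBLN1 lower in each si-YTHDF2 library. The endothelial list summed to between 51.9 and 56.2 CPM in si-YTHDF2 and between 39.6 and 45.3 CPM in NC, where CDH5 carried most of it and PECAM1 and VWF overlapped between the groups.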
